A study of Mus musculus with 6 samples.

Results

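Interferon-stimulated genes were followed on 6 Clariom S mouse arrays of differentiated C2C12 cells, an established mouse myoblast line that fuses into myotubes when serum is reduced. The set was a given list of 39 genes, taken by name and drawn up with earlier results of these data known, of 19505 genes with a symbol on the platform. 38 of the 39 had a probe set, and Ifi44 was not analysed here. All cells were differentiated to day 3 in low serum. The 3 groups had 2 arrays each. MyoD + Dox cells carried an integrating lentivirus that encodes MyoD under a doxycycline-responsive promoter, and received doxycycline. Uninduced cells carried the same lentivirus and received no doxycycline. Non-transduced cells carried no virus and received doxycycline. The transduced cells, and not the non-transduced cells, had also been through blasticidin selection. Hence doxycycline and MyoD vary together between MyoD + Dox and uninduced cells, virus, selection and MyoD between MyoD + Dox and non-transduced cells, and virus, selection and doxycycline between uninduced and non-transduced cells. These causes cannot be told apart within a comparison. No source used here states that paired arrays stem from independent dishes, so the tests measure only the spread between these arrays, which may be technical.

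Type I interferons are secreted proteins that bind the receptor chains Ifnar1 and Ifnar2 and activate the kinases Jak1 and Tyk2. These activate STAT proteins, and a complex that holds Stat2 and Irf9 binds the interferon-stimulated response element in the promoters of many target genes. Some targets sense viral RNA or carry the signal further, others bind viral RNA or block viral entry and replication, and the ubiquitin-like protein Isg15 and its protease Usp18 modify proteins and limit the response. Many cell types keep a low level of the response without infection, and foreign nucleic acid is a known trigger of it.

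The response element is a pair of GAAA repeats a few bases apart, and promoters of 6 of the 38 genes are printed to show where this pattern lies in the genes that the values below turn on. The sequences were taken from RefSeq (GRCm38.p6), run 5′ to 3′ along the gene's own strand from 250 bases before to 50 bases after its annotated start, and have the match to GAAANNGAAA on either strand in capitals. Ifit1, Ifit3, Gbp2 and Oasl2 had the largest differences between the groups, and Isg15 holds the densest run of the repeat among these 6. Cxcl10 holds the pattern but had like means in every group, although its MyoD + Dox arrays differed.
Ifit1 (chr19:34640639-34640938, plus strand): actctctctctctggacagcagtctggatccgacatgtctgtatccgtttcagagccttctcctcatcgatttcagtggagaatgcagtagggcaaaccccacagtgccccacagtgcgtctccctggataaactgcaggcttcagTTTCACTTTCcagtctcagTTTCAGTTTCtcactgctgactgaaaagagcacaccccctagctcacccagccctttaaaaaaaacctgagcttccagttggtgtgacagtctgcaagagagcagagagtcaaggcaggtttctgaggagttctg
Ifit3 (chr19:34583279-34583578, plus strand): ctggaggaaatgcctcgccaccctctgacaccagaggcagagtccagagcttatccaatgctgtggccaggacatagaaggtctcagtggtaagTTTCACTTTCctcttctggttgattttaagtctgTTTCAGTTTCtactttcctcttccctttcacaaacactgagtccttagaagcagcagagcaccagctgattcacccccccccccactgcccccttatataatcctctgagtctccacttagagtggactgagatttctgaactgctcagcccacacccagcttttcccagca
Gbp2 (chr3:142620413-142620712, plus strand): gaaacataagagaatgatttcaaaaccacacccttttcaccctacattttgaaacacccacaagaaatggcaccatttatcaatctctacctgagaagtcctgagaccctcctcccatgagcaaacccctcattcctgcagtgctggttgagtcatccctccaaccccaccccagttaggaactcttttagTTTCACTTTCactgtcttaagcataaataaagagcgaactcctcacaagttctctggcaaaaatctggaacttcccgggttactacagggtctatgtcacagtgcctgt
Oasl2 (chr5:114896684-114896983, plus strand): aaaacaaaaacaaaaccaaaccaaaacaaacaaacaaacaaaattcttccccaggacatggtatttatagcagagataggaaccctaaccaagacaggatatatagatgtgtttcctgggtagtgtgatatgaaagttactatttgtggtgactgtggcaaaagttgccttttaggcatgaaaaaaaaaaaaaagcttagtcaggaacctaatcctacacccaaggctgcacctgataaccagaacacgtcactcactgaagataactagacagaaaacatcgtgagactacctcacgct
Isg15 (chr4:156200769-156201068, minus strand): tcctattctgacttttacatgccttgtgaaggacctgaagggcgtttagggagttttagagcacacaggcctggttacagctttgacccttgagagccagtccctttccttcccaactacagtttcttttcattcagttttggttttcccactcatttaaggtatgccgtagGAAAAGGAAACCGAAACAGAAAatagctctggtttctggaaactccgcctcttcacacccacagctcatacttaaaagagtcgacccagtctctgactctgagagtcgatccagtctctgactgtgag
Cxcl10 (chr5:92348840-92349139, minus strand): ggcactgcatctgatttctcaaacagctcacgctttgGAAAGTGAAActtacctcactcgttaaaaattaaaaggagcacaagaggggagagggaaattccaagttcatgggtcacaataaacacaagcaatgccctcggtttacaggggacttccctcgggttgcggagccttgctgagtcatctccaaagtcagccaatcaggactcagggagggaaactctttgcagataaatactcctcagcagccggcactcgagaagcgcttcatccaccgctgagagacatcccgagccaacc

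Ifit1 and Ifit3 held 2 matches each, Gbp2 and Cxcl10 held 1 each, and Isg15 held 3 that overlap. The matches of Isg15 began at -78, -72 and -66 and those of Ifit1 at -104 and -85, counted from the annotated start. Oasl2 held 0 matches in this window. Of the 30 listed genes with a promoter in the table, 15 (50%) held at least 1 match, against 1079 of 27025 genes in the table (3.99%), or 3.44% of its 32851 promoters. A longer form, GAAANNGAAACT, was held by 8 of the 30 genes (26.7%), against 0.303% of the genes and 0.271% of the promoters in the table. A match is a description of the letters and not a measured binding site. Holding the short form did not set the measured genes apart: the median log2 difference of uninduced over non-transduced cells was 1.72 for 15 genes with it and 1.71 for 14 genes without it. For the long form the medians were 2.31 over 8 genes with it and 1.67 over 21 genes without it, with single values from -0.01 to 4.49 among the 8.

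All levels below are the log2 of the deposited signal. A gene was called above background on an array where it exceeded the 90th percentile of 23 background probe sets, which lay at 6.01 to 6.15. Levels were compared only within a gene, since probe sets differ in brightness. As a check of the labels, Myod1 had 11.51 and 12.54 in MyoD + Dox cells, 9.0 and 7.91 in uninduced cells, and 8.72 and 10.68 in non-transduced cells. The 7 markers of C2C12 myoblasts or myotubes were above background on all 6 arrays. The 5 macrophage, 4 T or NK cell, 4 endothelial and 3 adipocyte markers were below it on every array. Of the 3 neuron markers Tubb3 was above it on all arrays and Snap25 and Rbfox3 on none, and of the 4 plasmacytoid dendritic cell markers Tcf4 and Bst2, itself a listed gene, were above it on all arrays and Siglech and Irf8 on none. The non-transduced pair was the least alike over all genes, with 7.8% at least 2-fold higher in measured signal on array 1 and 7.18% on array 2, against 1.18% to 2.48% in the same counts of the other pairs. Of the 38 interferon-stimulated genes, 16 were above background on all 6 arrays, 15 on some arrays, and 7 (Mx1, Oas1a, Oas2, Oas3, Oasl1, Zbp1 and Nmi) on none. Over all 19505 genes, 8662 were above it on all 6 arrays and 10248 on at least 1. In bulk RNA, more responding cells and more RNA per cell cannot be told apart.

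The interferon-stimulated genes were high on both arrays of uninduced cells and low on both arrays of non-transduced cells, while the 2 arrays of MyoD + Dox cells were unlike, one close to the uninduced pair and one to the non-transduced pair. The mean log2 level over the 38 genes was 8.67 and 6.86 in MyoD + Dox cells, 8.43 and 8.34 in uninduced cells, and 7.15 and 6.16 in non-transduced cells. Thus array 1 of MyoD + Dox cells was above both uninduced arrays and array 2 lay between the 2 non-transduced arrays. Over the 16 genes above background everywhere, the means were 11.20 and 9.18 in MyoD + Dox cells, 10.93 and 10.78 in uninduced cells, and 9.58 and 8.17 in non-transduced cells, which is the same order of arrays. The mean over all 19505 genes was 6.98 to 7.0 on every array. The number of listed genes above background was 29 and 25 in MyoD + Dox cells, 30 and 30 in uninduced cells, and 25 and 17 in non-transduced cells. Of all genes, 48.0% to 48.9% were above background on each array.

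**Figure D1:**
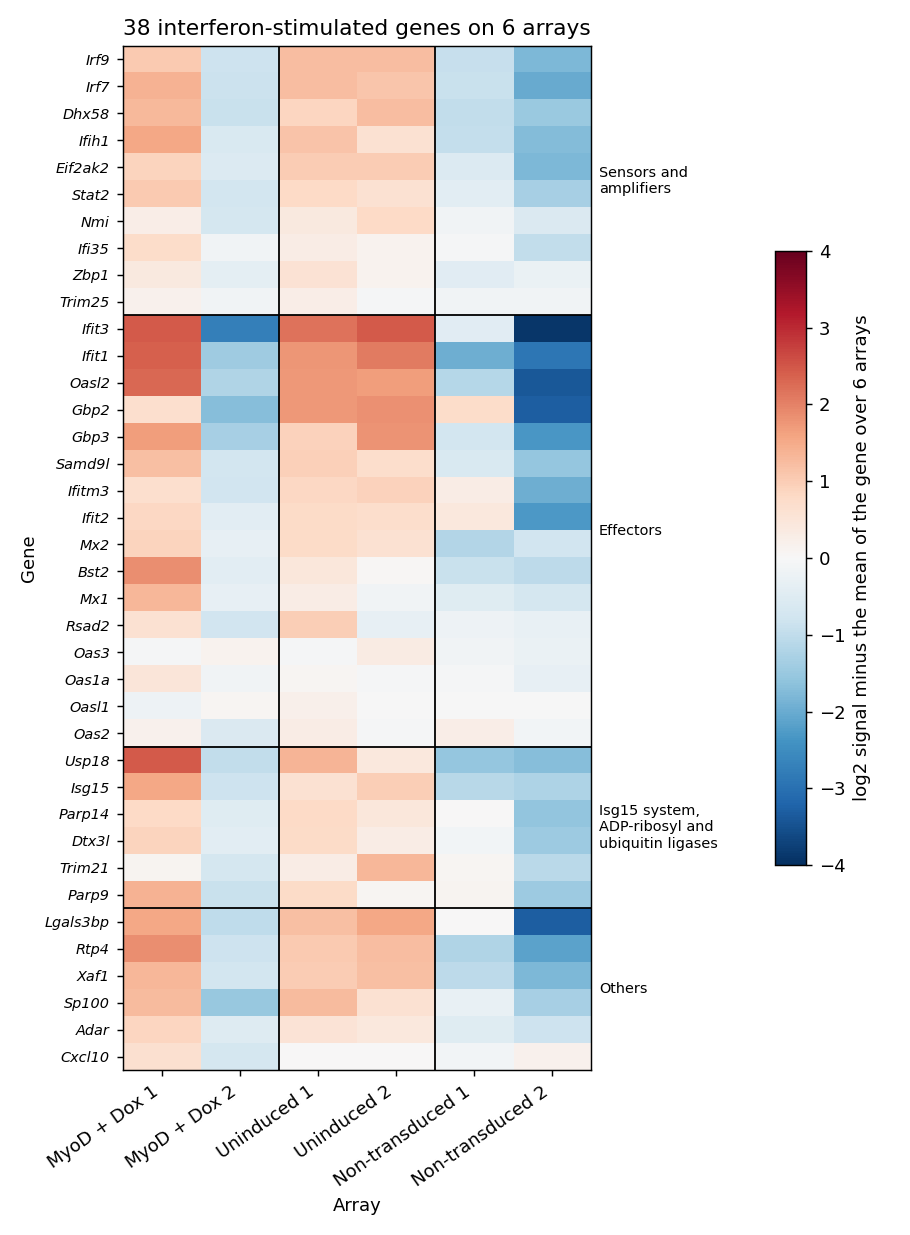
Each row is one of 38 interferon-stimulated genes and each column an array, and the colour gives the log2 signal minus the mean of that gene over the 6 arrays (red above, blue below). MyoD + Dox array 1 and both uninduced arrays are mostly red, while MyoD + Dox array 2 and both non-transduced arrays are mostly blue, with means over the genes of 8.67 and 6.86 in MyoD + Dox cells, 8.43 and 8.34 in uninduced cells, and 7.15 and 6.16 in non-transduced cells.

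Among the sensors and amplifying factors, both transcription factor partners of the signalling complex were high in uninduced cells. Irf9, the DNA-binding subunit, had 8.40 and 6.53 in MyoD + Dox cells, 8.59 and 8.59 in uninduced cells, and 6.41 and 5.55 in non-transduced cells, of which the last was not above background. Both uninduced arrays were above the other 4, and both MyoD + Dox arrays lay between the uninduced and the non-transduced pair. Irf9 was 6.11-fold higher in uninduced than in non-transduced cells (log2 difference 2.61, SE 0.63, adjusted p = 0.637 by limma). This is the smallest unadjusted p of the 38 genes, and the adjustment over all genes did not keep it.

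Stat2, its partner, had 11.17 and 9.39 in MyoD + Dox cells, 10.93 and 10.72 in uninduced cells, and 9.69 and 8.80 in non-transduced cells. The uninduced arrays were again above both non-transduced arrays (2.98-fold, log2 difference 1.58, SE 0.62), and one MyoD + Dox array lay above them and the other between the 2 non-transduced arrays. Irf7, a factor that amplifies interferon production, had 6.54 and 4.29 in MyoD + Dox cells, 6.37 and 6.24 in uninduced cells, and 4.26 and 3.14 in non-transduced cells. It was above background only on MyoD + Dox array 1 and on both uninduced arrays, so its level in uninduced cells was at least 1.19-fold that in non-transduced cells, a bound set by the array background. Eif2ak2, the kinase PKR that halts translation on double-stranded RNA, had 11.80 and 10.35 in MyoD + Dox cells, 11.92 and 11.92 in uninduced cells, and 10.37 and 9.11 in non-transduced cells. Here the 2 uninduced arrays differed by less than 0.01 and the difference over non-transduced cells was 4.54-fold (log2 difference 2.18, SE 0.59). Ifi35, which binds the interferon-induced protein Nmi, had 9.32 and 8.47 in MyoD + Dox cells, 8.90 and 8.74 in uninduced cells, and 8.56 and 7.60 in non-transduced cells, a narrower range. Trim25, the ubiquitin ligase that acts on the RNA sensor RIG-I, was nearly level, with 8.78 and 8.46 in MyoD + Dox cells, 8.88 and 8.57 in uninduced cells, and 8.47 and 8.47 in non-transduced cells. Of the 10 genes of this role, 10 had a positive difference of uninduced over non-transduced cells, with a median of 1.88. Over all 19505 genes, 9735 had a positive difference.

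Among the effectors, Ifit3 and Ifit1, of which the Ifit1 protein binds viral RNA, had the largest differences of uninduced over non-transduced cells. Ifit3 had 13.50 and 8.31 in MyoD + Dox cells, 13.24 and 13.52 in uninduced cells, and 10.61 and 7.16 in non-transduced cells. The MyoD + Dox arrays differed by 36.3-fold and the non-transduced arrays by 10.9-fold, while the uninduced arrays differed by 1.21-fold. Ifit3 and its near-identical paralog Ifit3b have separate probe sets that may share signal. Uninduced cells were 22.5-fold above non-transduced cells (log2 difference 4.49, SE 1.84, adjusted p = 0.637 by limma), and MyoD + Dox cells were 4.06-fold above them (log2 difference 2.02, SE 1.84, adjusted p = 1.0 by limma).

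Ifit1 had 10.63 and 6.81 in MyoD + Dox cells, 10.02 and 10.34 in uninduced cells, and 6.30 and 5.36 in non-transduced cells, of which 1 array was above background. Both uninduced arrays were far above both non-transduced arrays, and the mean difference was 20.4-fold (log2 difference 4.35, SE 1.18). The MyoD + Dox arrays differed by 14.1-fold and did not overlap the non-transduced arrays, from which they were 7.42-fold apart on average (log2 difference 2.89, SE 1.17, adjusted p = 1.0 by limma). Oasl2, a member of the 2′-5′-oligoadenylate synthetase family, had 12.53 and 9.04 in MyoD + Dox cells, 11.96 and 11.89 in uninduced cells, and 9.10 and 6.85 in non-transduced cells. MyoD + Dox array 2 was within 0.10 of non-transduced array 1, and the mean of uninduced cells was 15.5-fold that of non-transduced cells (log2 difference 3.95, SE 1.24).

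The guanylate-binding proteins are interferon-induced GTPases that attack intracellular pathogens, and Gbp2 and Gbp3 differed in their order of arrays. Gbp2 had 9.17 and 6.77 in MyoD + Dox cells, 10.23 and 10.32 in uninduced cells, and 9.21 and 5.19 in non-transduced cells. Both MyoD + Dox arrays were below both uninduced arrays, non-transduced array 1 was level with MyoD + Dox array 1, and non-transduced array 2 was not above background, so that the gap within that pair was at least 3.11 log2 units. Gbp3 had 9.20 and 6.17 in MyoD + Dox cells, 8.43 and 9.32 in uninduced cells, and 6.77 and 5.18 in non-transduced cells. This is the order of arrays seen for Ifit3. Bst2, the tetherin that holds budding virus at the membrane, had 10.40 and 8.10 in MyoD + Dox cells, 9.0 and 8.58 in uninduced cells, and 7.64 and 7.49 in non-transduced cells. For Bst2 both MyoD + Dox arrays and both uninduced arrays were above both non-transduced arrays, 3.21-fold and 2.34-fold on average.

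Some of the remaining effectors were above background throughout and others on few arrays or none. Samd9l, which restrains protein synthesis, and Ifitm3, which blocks viral entry, were above background on all 6 arrays, at 9.61 to 12.36 and 12.62 to 15.51. Ifit2 had 10.22 and 8.96 in MyoD + Dox cells, 10.16 and 10.09 in uninduced cells, and 9.80 and 7.10 in non-transduced cells. Mx2, a GTPase of the antiviral Mx family, was above background on both MyoD + Dox and both uninduced arrays and on neither non-transduced array, and was at least 2.08-fold and at least 2.76-fold higher than there. Oas1a, Oas2, Oas3, Oasl1 and Mx1 were above background on 0 arrays, and Rsad2, the radical enzyme viperin, on 1. No fold is given for these 6 genes.

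**Figure D2:**
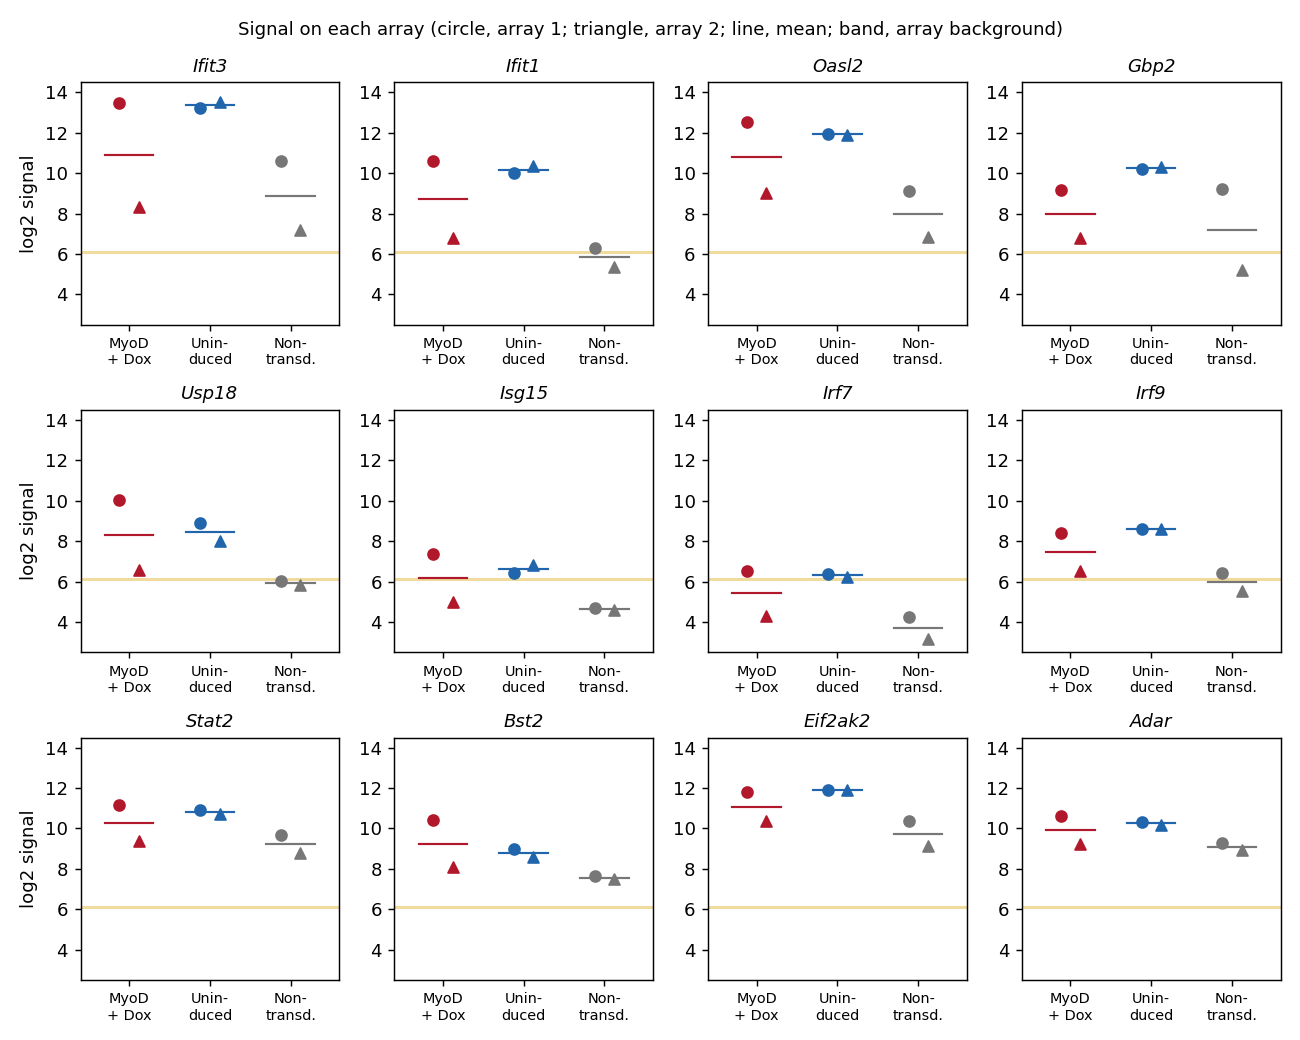
The log2 signal of 12 interferon-stimulated genes in MyoD + Dox, uninduced and non-transduced cells, with a circle for array 1, a triangle for array 2, a line for their mean and a band for the range of the array backgrounds (6.01 to 6.15). In most panels the uninduced pair lies close together and high while the MyoD + Dox pair is spread, as for Ifit3 (13.50 and 8.31 in MyoD + Dox cells, 13.24 and 13.52 in uninduced cells).

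Isg15, the ubiquitin-like modifier, had 7.37 and 4.98 in MyoD + Dox cells, 6.41 and 6.81 in uninduced cells, and 4.70 and 4.59 in non-transduced cells. It was above background on 1 of 2 MyoD + Dox arrays, on both uninduced arrays and on neither non-transduced array, which gives a level at least 1.47-fold higher in uninduced than in non-transduced cells. Usp18, the protease that removes Isg15 and restrains the interferon receptor, had 10.03 and 6.59 in MyoD + Dox cells, 8.92 and 7.98 in uninduced cells, and 6.03 and 5.85 in non-transduced cells, of which 1 array was above background. The 2 MyoD + Dox arrays differed by 10.8-fold. The group means were 5.16-fold higher in MyoD + Dox than in non-transduced cells (log2 difference 2.37, SE 1.06, adjusted p = 1.0 by limma) and 5.69-fold higher in uninduced than in non-transduced cells (log2 difference 2.51, SE 1.06, adjusted p = 0.637 by limma). Parp9, which works with the ubiquitin ligase Dtx3l, had 8.68 and 6.42 in MyoD + Dox cells, 8.07 and 7.36 in uninduced cells, and 7.41 and 5.85 in non-transduced cells, and its uninduced and non-transduced arrays overlapped. Dtx3l itself had 9.26 and 7.97 in MyoD + Dox cells, 9.13 and 8.68 in uninduced cells, and 8.27 and 6.93 in non-transduced cells. All 6 genes of this role had a positive difference of uninduced over non-transduced cells, from 1.09 to 2.51, against 9735 of all 19505 genes.

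Of the other genes, Adar, the enzyme that edits adenosine to inosine in double-stranded RNA, had 10.60 and 9.24 in MyoD + Dox cells, 10.31 and 10.18 in uninduced cells, and 9.28 and 8.92 in non-transduced cells. Its arrays kept the usual order over a smaller range (2.21-fold in uninduced over non-transduced cells, log2 difference 1.14, SE 0.45). Rtp4, an interferon-induced transporter protein, had 9.37 and 6.68 in MyoD + Dox cells, 8.56 and 8.75 in uninduced cells, and 6.30 and 5.35 in non-transduced cells. Sp100, a nuclear body protein, had 10.37 and 7.60 in MyoD + Dox cells, 10.40 and 9.73 in uninduced cells, and 8.84 and 7.79 in non-transduced cells, with MyoD + Dox array 2 the lowest of all 6. Lgals3bp, a secreted glycoprotein, ranged from 7.77 on non-transduced array 2 to 12.61 on uninduced array 2. Cxcl10, a chemokine that draws T cells, had 7.21 and 5.87 in MyoD + Dox cells, 6.59 and 6.60 in uninduced cells, and 6.46 and 6.74 in non-transduced cells. The uninduced and non-transduced arrays of Cxcl10 overlapped, and its group means differed by at most 0.06.

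The first comparison asks what doxycycline induction of MyoD does within transduced cells. The interferon-stimulated genes were lower in MyoD + Dox than in uninduced cells for 34 of 38 genes, against 9960 of all 19505 genes. The median log2 difference was -0.50 over the list and -0.01 over all genes. The lowest were Ifit3 (-2.47), Gbp2 (-2.30), Ifit1 (-1.46) and Gbp3 (-1.19), and the highest was Bst2 (0.46). By measured signal, which includes genes below background, 9 of 38 genes were at least 2-fold lower (3.08% of all genes) and 0 at least 2-fold higher (3.69%). With each signal raised to the background of its array, 8 were at least 2-fold lower (2.53% of all genes) and 0 higher (3.16%). No gene of the list passed an adjusted p under 0.05 with limma, where the lowest was 0.680, and the share of all genes called was 0%. At an unadjusted p under 0.05, 0 of 38 were lower (3.19% of all genes) and 0 were higher (4.22%). In 6 of 38 genes (Irf9, Gbp2, Trim21, Eif2ak2, Ifitm3 and Nmi) both MyoD + Dox arrays were below both uninduced arrays, against 24.8% of all genes, and in 0 they were above both, against 23.8%. Of these 6, Nmi was not above background on any array. The median came from the unlike MyoD + Dox arrays: array 1 was above both uninduced arrays in 21 of 38 genes (34.9% of all genes) and below both in 8 (37%), while array 2 was above both in 0 (36.8%) and below both in 36 (37.8%). Without array 2 the median was 0.25 and without array 1 it was -1.45.

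The second comparison sets MyoD + Dox cells against non-transduced cells, with doxycycline in both. The genes were higher in MyoD + Dox cells for 35 of 38 genes, against 9794 of all 19505 genes. The median log2 difference was 1.06 over the list and 0.00 over all genes. Ifit1 (2.89), Oasl2 (2.81), Usp18 (2.37) and Rtp4 (2.20) were the highest. By measured signal, 21 of 38 genes differed upward by at least 2-fold, as did 1.27% of all genes, while 0 differed downward by as much (0.559%). With signals raised to the background the upward count was 17 (0.969% of all genes). No gene passed the adjusted threshold (lowest adjusted p = 1.0 by limma), and 4 genes, Mx2, Ifih1, Rtp4 and Xaf1, had an unadjusted p under 0.05 and were higher, against 1.6% of all genes. None was lower at that threshold (1.34% of all genes). The 4 became 0 with signals raised to the background (1.63% of all genes) and 0 without MyoD + Dox array 1 (1.35%), 21 without MyoD + Dox array 2 (1.03%), 16 without non-transduced array 1 (7.55%) and 1 without non-transduced array 2 (4.55%), and 0 without either uninduced array (1.22%). Both MyoD + Dox arrays were above both non-transduced arrays in 13 of 38 genes (13.9% of all genes). The 13 include Mx1 and Oas3, which were not above background on any array. Array 1 was above both non-transduced arrays in 35 genes (26% of all genes), and array 2 in 14 (27.8%) and below both in 6 (27.6%). The median was 0.32 without MyoD + Dox array 1 and 1.95 without array 2.

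The third comparison, uninduced against non-transduced cells, gave the widest differences of the list. The genes were higher in uninduced cells for 37 of 38 genes, against 9735 of all 19505 genes. The median log2 difference was 1.66 over the list and 0.00 over all genes. In measured signal, 27 of 38 were at least 2-fold higher (4.18% of all genes) and 0 at least 2-fold lower (3.51%). With signals raised to the background, 21 were at least 2-fold higher (3.47% of all genes). Both uninduced arrays were above both non-transduced arrays in 34 of 38 genes, against 19.2% of all genes, and the exceptions were Cxcl10, Rsad2, Oas2 and Parp9. The 34 include Mx1, Oas1a, Oas3, Oasl1, Zbp1 and Nmi, which were not above background on any array. No gene passed the adjusted threshold (lowest adjusted p = 0.637 by limma). At an unadjusted p under 0.05, 16 of 38 were higher, against 3.11% of all genes, and 0 were lower, against 3.12%. The 16 held 7 of the 10 sensors and amplifying factors (Irf7, Irf9, Stat2, Ifih1, Dhx58, Eif2ak2 and Nmi), 5 of the 16 effectors (Ifit1, Mx2, Oasl2, Gbp3 and Samd9l), 1 of the 6 genes of the Isg15 and ligase group (Isg15), and 3 of the 6 others (Rtp4, Xaf1 and Adar). Nmi, Irf7 and Isg15 are among those not above background in non-transduced cells. The 16 became 5 with signals raised to the background (2.47% of all genes), 5 without uninduced array 1 (2.62%), 2 without uninduced array 2 (1.07%), 24 without non-transduced array 1 (12.7%) and 8 without non-transduced array 2 (1.78%). Leaving out non-transduced array 1 gave 8 of 38 genes with an adjusted p under 0.05, beside 1199 of all genes in that direction, and this fit sets both uninduced arrays against non-transduced array 2 alone, which is assumed to vary like the other groups. Leaving out any other array gave 0 of 38. The 3 comparisons share arrays, so their differences are not independent of one another.

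Within the pair of MyoD + Dox arrays, array 1 was higher in 36 of 38 genes, against 9620 of all 19505 genes. The median gap over the list was 1.71 log2 units, and the exceptions were Oas3 and Oasl1, which were below background. By measured signal, 29 of 38 genes were at least 2-fold higher on array 1 (1.84% of all genes), 16 at least 4-fold (0.369%) and 5, Ifit1, Ifit3, Usp18, Oasl2 and Gbp3, at least 8-fold (0.0872%). None was 2-fold higher on array 2 (1.18%). With signals raised to the background these counts on array 1 were 25 (1.26% of all genes), 13 (0.297%) and 5 (0.0718%). Of the 50 genes with the widest gap of measured signal in this direction, 13 were of the list, which is 38 of 19505 genes. In the uninduced pair the median gap was 0.11, with 1 gene at least 2-fold higher on array 1 (Rsad2, against 2.48% of all genes) and 1 on array 2 (Trim21, against 1.31%), and 0 were 4-fold (0.477%) or 8-fold (0.0564%) higher on array 1. Rsad2 and Trim21 were above background on 1 uninduced array each, and with signals raised to the background 0 genes were 2-fold higher on array 1 (1.73% of all genes) or array 2 (0.692%). In the non-transduced pair array 1 was higher in 33 of 38 genes with a median gap of 0.88, against 9528 of all 19505 genes. On it 14 listed genes were at least 2-fold higher (7.8% of all genes) and 6 at least 4-fold (2.54%). Another 8-fold count held 3 genes, Ifit3, Gbp2 and Lgals3bp (0.984%). None was 2-fold higher on array 2 (7.18%). With signals raised to the background the counts on array 1 were 10 (6.55%), 6 (2.27%) and 3 (0.882%). In that pair 0 of the 50 widest gaps were of the list.

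Genes with a wide gap between the MyoD + Dox arrays also tended to have a wide difference between the other groups, whose arrays are not the same ones. Over the 38 genes, Pearson's r between the gap of MyoD + Dox arrays and the difference of uninduced over non-transduced cells, both in measured signal, was 0.87 and Spearman's rho was 0.83, against 0.39 and 0.25 over all 19505 genes. These are descriptions across genes, which are not independent replicates.

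**Figure D3:**
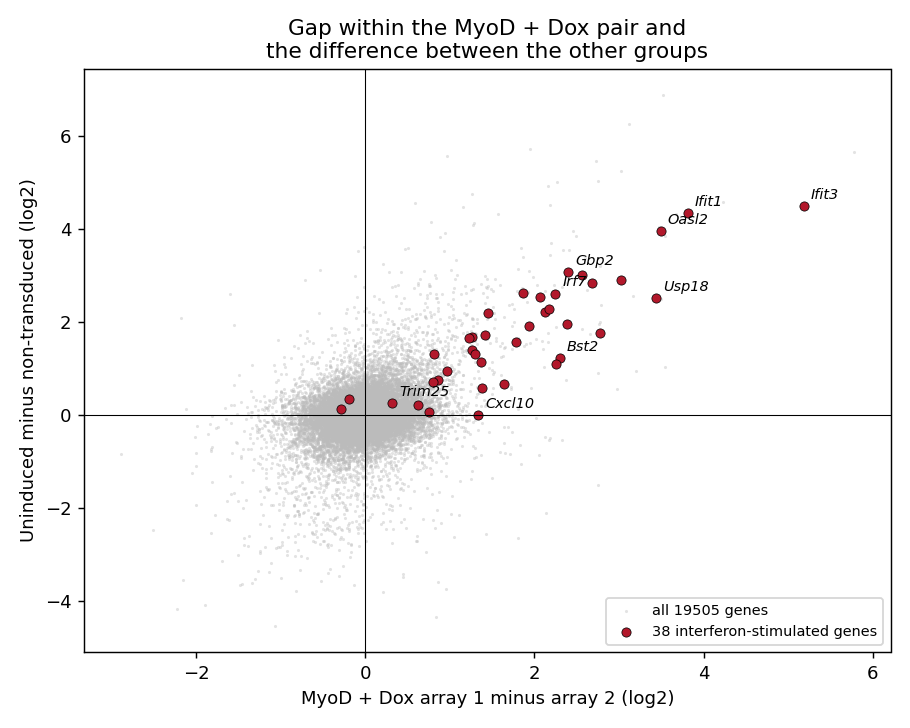
Each point is a gene, with the log2 signal of MyoD + Dox array 1 minus array 2 on the horizontal axis and the mean log2 signal of uninduced minus non-transduced cells on the vertical axis, for 38 interferon-stimulated genes (red) and all 19505 genes (grey). The red points run along a diagonal (r = 0.87) from near 0 for Trim25 to Ifit3 at 5.18 and 4.49.

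The interferons themselves were low. Of 19 interferon genes measured, 1 (Ifna5, at 6.82 to 7.35) was above background, and their mean log2 level was 4.07 to 4.26 on every array. Ifnb1, the interferon that most cell types make first, had 4.28 and 4.49 in MyoD + Dox cells, 4.34 and 4.70 in uninduced cells, and 4.55 and 4.23 in non-transduced cells, none above background. Only Ifna16 among these 19 had an unadjusted p under 0.05 (lower in MyoD + Dox cells in both its comparisons), and it was below background on every array.

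The receptor chains Ifnar1 and Ifnar2 and the kinases Jak1, Jak2 and Tyk2 were above background on all arrays. The 15 receptor, kinase and factor genes had a median log2 difference of -0.50 in MyoD + Dox against uninduced cells. The 38 listed genes had the same median. In uninduced against non-transduced cells the medians were 0.51 for these 15 and 1.66 for the 38. Ifnar1 had 10.53 and 10.36 in MyoD + Dox cells, 11.12 and 11.32 in uninduced cells, and 11.19 and 10.23 in non-transduced cells. Ifnar2 had 13.01 and 12.50 in MyoD + Dox cells, 13.60 and 14.18 in uninduced cells, and 13.76 and 12.05 in non-transduced cells. For both chains non-transduced array 1 lay in the range of the uninduced pair, so the uninduced and non-transduced groups overlapped. Both MyoD + Dox arrays were below both uninduced arrays for both chains, as in 24.8% of all genes. Jak1 ranged from 9.67 to 11.15 over the 6 arrays and Tyk2 from 9.68 to 10.17. Jak2 ranged more widely, from 9.10 to 12.22, with a log2 difference of 1.61 (SE 0.83) in uninduced over non-transduced cells. Irf1, an early interferon-induced factor, had 9.71 and 8.95 in MyoD + Dox cells, 10.21 and 10.25 in uninduced cells, and 10.30 and 8.74 in non-transduced cells. Irf3, which starts interferon transcription after nucleic acid is sensed, ran the other way, with 8.15 and 8.08 in MyoD + Dox cells, 7.49 and 7.53 in uninduced cells, and 7.88 and 8.27 in non-transduced cells. In uninduced cells against non-transduced cells, 1 of 15 receptor, kinase and factor genes had an unadjusted p under 0.05 and was higher (Irf2) and 1 was lower (Irf3), against 3.11% and 3.12% of all genes, and the median difference was 0.51.

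Several of the nucleic acid sensing genes are themselves interferon-induced, Ddx58 and Tlr3 among them. Ddx58, the gene of RIG-I, had 11.50 and 9.97 in MyoD + Dox cells, 11.66 and 11.90 in uninduced cells, and 10.47 and 8.96 in non-transduced cells. Tlr3, the endosomal receptor for double-stranded RNA, had 10.24 and 9.04 in MyoD + Dox cells, 10.27 and 10.53 in uninduced cells, and 9.37 and 6.71 in non-transduced cells. In both genes both uninduced arrays were above all other 4. Of 16 sensing genes, 4 (Ddx58, Tlr3, Ifi204 and Samhd1) were higher in uninduced than in non-transduced cells at an unadjusted p under 0.05, and 0 were lower, against 3.11% and 3.12% of all genes. The median difference of the 16 was 0.19, and 6 of them were below 0, against 9770 of all 19505 genes. Of 13 negative regulators, 1 was higher (Socs1, below background on every array) and 2 were lower (Tnfaip3 and Trim27), beside the same 3.11% and 3.12%.

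A second list of 77 measured interferon-induced genes, none of them among the 38, had means of 7.96 and 7.20 in MyoD + Dox cells, 7.89 and 7.99 in uninduced cells, and 7.43 and 6.68 in non-transduced cells. The arrays stood in a similar order with less spread. In uninduced against non-transduced cells the median difference was 0.77, 18 of 77 were higher at an unadjusted p under 0.05 and 1 was lower (Ifi30), against 3.11% and 3.12% of all genes. Trim30a, a ubiquitin ligase of the Trim family, had 8.26 and 4.72 in MyoD + Dox cells, 8.30 and 8.47 in uninduced cells, and 5.11 and 3.96 in non-transduced cells. Tgtp2, an interferon-induced GTPase, had 8.01 and 6.08 in MyoD + Dox cells, 7.39 and 7.94 in uninduced cells, and 5.72 and 3.40 in non-transduced cells. Within the MyoD + Dox pair, 24 of the 77 genes were at least 2-fold higher in measured signal on array 1 (1.84% of all genes) and 1 on array 2 (1.18%).

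Other gene groups moved between the same arrays in different orders. Targets of NF-kappaB, a factor of inflammatory signalling, averaged 8.85 and 7.77 in MyoD + Dox cells, 9.13 and 9.53 in uninduced cells, and 9.14 and 6.32 in non-transduced cells. In this list non-transduced array 1 was level with the uninduced pair, which was not the case for the interferon-stimulated genes. Cxcl5, its widest gene and a neutrophil chemokine, had 15.17 and 11.66 in MyoD + Dox cells, 16.61 and 17.34 in uninduced cells, and 16.01 and 4.17 in non-transduced cells. The 2 fibroblast markers measured, Dpt and Cd34, averaged 11.34 and 9.15 in MyoD + Dox cells, 12.63 and 12.17 in uninduced cells, and 12.91 and 7.86 in non-transduced cells. The 17 myotube genes averaged 14.31 and 14.59 in MyoD + Dox cells, 12.59 and 10.38 in uninduced cells, and 12.57 and 14.93 in non-transduced cells. The MyoD + Dox pair, the least alike of the pairs in the interferon-stimulated genes, was thus close in myotube genes. It was not close in the 2 fibroblast markers. Its 10 widest gaps with array 1 higher held 3 listed genes and 2 of the second interferon list. The others were Dcn, the widest of all, C1s2, Dpt, Cxcl5 and Spon2. The 11 genes of cycling cells averaged 10.62 and 10.96 in MyoD + Dox cells, 10.80 and 10.37 in uninduced cells, and 10.54 and 10.32 in non-transduced cells. The part of inflammatory signalling, of fibroblast-like cells and of the extent of differentiation in the result was not tested.

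**Figure D4:**
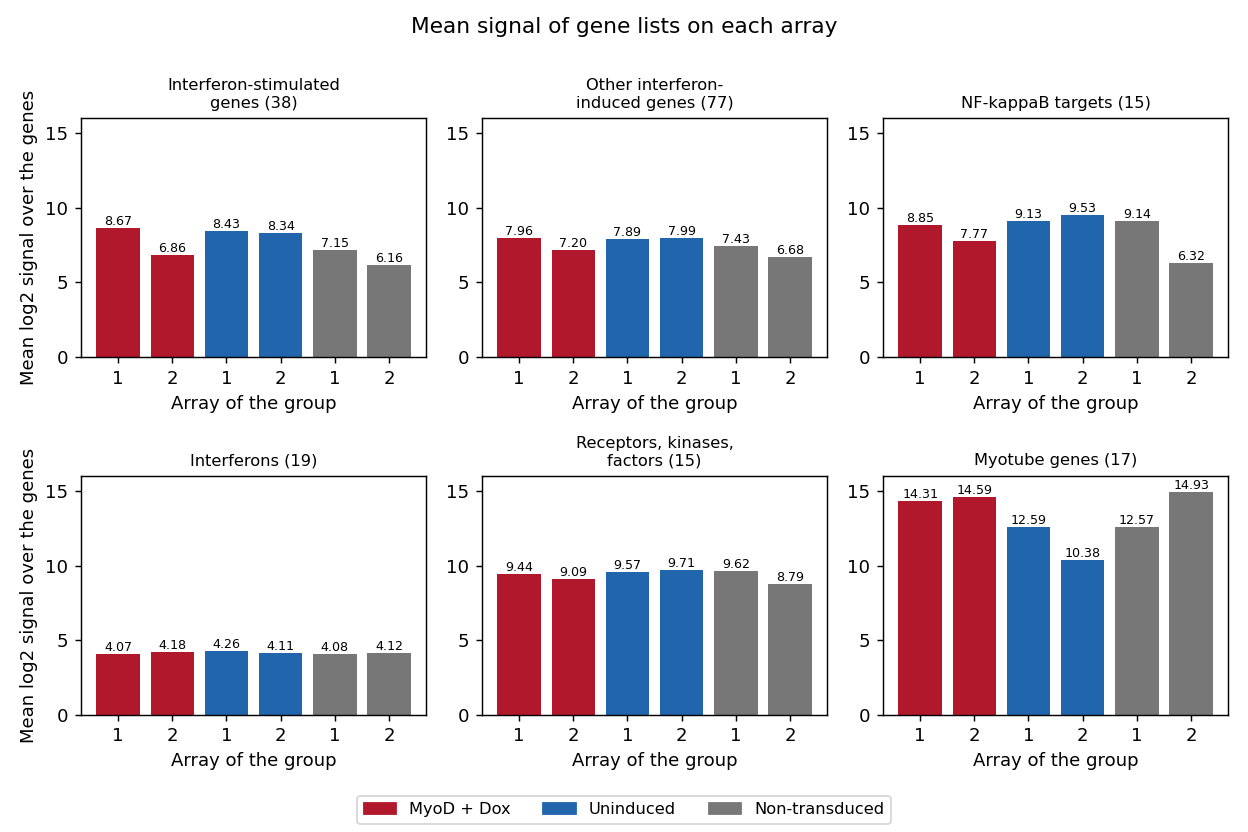
Bars give the mean log2 signal over each gene list on each array (1 and 2 of the group), from 0, for MyoD + Dox, uninduced and non-transduced cells. The interferon-stimulated genes are high on MyoD + Dox array 1 and the uninduced arrays, the interferons lie between 4.07 and 4.26 throughout, and the myotube genes are close on both MyoD + Dox arrays (14.31 and 14.59).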

How the data were processed

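Gene expression was measured on 6 Clariom S mouse arrays, 2 in each of 3 groups, which were grouped by the submitters' labels. The authors deposited signal intensity per probe set on a linear scale. The medians of the arrays were alike, at 45.4 to 48.4, and no further normalization was applied in the main fit. Per the submitters' processing notes the software was Affymetrix Expression Console (version not stated), while the methods name the Transcriptome Analysis Console, and signal space transformation with robust multi-array averaging for the gene signals of heat maps. No source ties either program or that normalization to the deposited table. Log2 of the intensity was taken. Of 28846 probe sets, 19572 had 1 symbol in the platform annotation, and the probe set with the highest mean was kept for the 55 genes with several, which left 19505 genes. No filter on dim genes was applied, and all columns were mapped to samples.

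Group differences were fitted in R 4.3.3 with lmFit and eBayes of limma 3.58.1 on the 6 arrays jointly. P-values were two-sided and adjusted by Benjamini-Hochberg over the 19505 genes, with 0.05 as the threshold. Adjusted p-values in the text come from that fit, and counts at unadjusted p are descriptions. The script was tested on simulated data. Fold changes are differences of mean log2 signal. Where a gene was not above background on any array of a group, the fold of a single gene is given as a bound, from the higher of each array's background and the gene's own signal. Counts past a fold use measured signals, with counts at signals raised to the background beside them. With 2 arrays a group, an exact permutation test could not pass the threshold. The number of arrays limits the precision.

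The members and lists were chosen with earlier results of these data known. Values are given for the 4 highest and 4 lowest members of each comparison among those above background, for Isg15, Ifit1, Irf7, Irf9, Stat2, Usp18, Bst2, Eif2ak2 and Adar, for the 3 widest gaps within a group, and for set genes of the pathway. Ifit2, Ifitm3, Samd9l, Mx2, Dtx3l, Lgals3bp and Ifna5 were added once values were known. Alternatives comprised quantile or median scaling, a filter on dim genes, signals raised to the background, a trended robust prior, 4 arrays only, a block on replicate number, averaged probe sets, the t-test named in the methods, and leaving out each array. Promoters are from RefSeq (GRCm38.p6).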

Additional observations from a re-analysis of the deposited data

How the results depend on the processing

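In each alternative that kept all 6 arrays or the 4 of a comparison, 0 of the 38 genes passed the adjusted threshold and the medians kept their sign. Counts that follow are at an unadjusted p under 0.05. In MyoD + Dox against uninduced cells, 2 of 38 genes were lower with 4 arrays only (8.24% of all genes). The main fit gave 0 (3.19%). In MyoD + Dox against non-transduced cells, the 4 higher genes (1.6% of all genes) became 1 without the lowest 40% of genes (1.39%). They became 0 with signals raised to the background (1.63%), with 4 arrays (1.22%) or with the methods' t-test (1.8%). In uninduced against non-transduced cells, the 16 higher genes (3.11% of all genes) became 5 with signals raised to the background (2.47%). The cause was not tested. With signals raised to the background the difference changed sign for Cxcl10 (0.089), Isg15 (0.15) and Irf7 (0.043) in MyoD + Dox against uninduced cells, and for Cxcl10 (0.0806) against non-transduced cells. The replicate numbers did not pair the arrays of all groups alike. Over all genes the deviations correlated at 0.41 between MyoD + Dox and non-transduced cells. They correlated at -0.05 between MyoD + Dox and uninduced cells, and at -0.34 between uninduced and non-transduced cells. Over the 38 genes these values were 0.49, -0.08 and -0.27. With a replicate block 16 genes were higher in MyoD + Dox (1.53% of all genes) and 26 in uninduced cells (2.96%) against non-transduced cells, with 0 at the adjusted threshold. With the numbers crossed between the last 2 groups, an alternative chosen after seeing the data, 25 were higher (5.69%).

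Leaving out each array in turn gave 0 to 19 lower and 0 to 3 higher genes (0.907% to 8.24% and 1.28% to 8.45% of all genes) and medians of -1.45 to 0.25 in MyoD + Dox against uninduced cells. The 19 came without MyoD + Dox array 1 (1.87%) and the 3 without array 2 (1.32%). It gave 0 to 21 higher genes (1.03% to 7.55%) and medians of 0.32 to 1.95 in MyoD + Dox against non-transduced cells, and 2 to 24 higher genes (1.07% to 12.7%) and medians of 1.10 to 2.11 in uninduced against non-transduced cells. The last comparison gave 0 to 8 genes at the adjusted threshold. The 8, without non-transduced array 1, were Ifit2, Irf9, Oasl2, Gbp2, Parp14, Eif2ak2, Lgals3bp and Ifitm3, beside 1199 of 19505 genes higher and 992 lower. In MyoD + Dox against uninduced cells the difference changed sign for 16 named genes: Adar (-1.0 to 0.36), Bst2 (-0.69 to 1.61), Cxcl10 (-0.72 to 0.62), Gbp3 (-2.71 to 0.32), Ifi35 (-0.36 to 0.50), Ifit1 (-3.37 to 0.45), Ifit3 (-5.06 to 0.12), Irf7 (-2.01 to 0.23), Isg15 (-1.63 to 0.76), Oasl2 (-2.89 to 0.60), Parp9 (-1.29 to 0.96), Rtp4 (-1.97 to 0.71), Sp100 (-2.46 to 0.31), Stat2 (-1.43 to 0.35), Trim25 (-0.26 to 0.060) and Usp18 (-1.86 to 1.58). In MyoD + Dox against non-transduced cells it did so for Cxcl10 (-0.73 to 0.61), Gbp2 (-1.24 to 2.78), Ifit3 (-0.57 to 4.61), Parp9 (-0.21 to 2.05), Sp100 (-0.71 to 2.06) and Trim25 (-0.0065 to 0.32), and in uninduced against non-transduced cells for Cxcl10 (-0.15 to 0.13). Signals near the background limit 22 of the 38 genes.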
